A study of Homo sapiens with 3 samples.

Results

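The TRIM (tripartite motif) family was taken as all protein-coding RefSeq genes whose symbol begins TRIM followed by a number, together with PML, which is also known as TRIM19. The rule found 78 genes among 19974 protein-coding genes on chromosomes 1 to 22 and X, and 2 of the 78 are readthrough entries, TRIM6-TRIM34, which shares an end with TRIM34, and TRIM39-RPP21, which overlaps TRIM39. Peaks of IRF3, a transcription factor that turns on interferon and antiviral genes, were placed against these genes. They came from ChIP-seq (sequencing of the DNA that an antibody to IRF3 brings down) in the human cell line BT549, which was derived from a basal-like breast tumour. The cells carried Cas9 from a lentiviral vector with a control guide RNA, Smad3 gRNA #1 or Smad3 gRNA #2, all got polyI:C, a double-stranded RNA mimic of virus, by transfection, and had no other stimulation. Each of the 3 groups was 1 library with 1 list of peaks that the authors deposited, so no difference between groups had a replicate check and none was tested. The titles of the samples with a Smad3 guide name the cells BT549-caSmad3 and the control title names BT549, and the effect of that difference in label cannot be told apart from that of the guides. Peaks do not measure whether the SMAD3 gene was inactivated, so the guide labels were not checked.

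TRIM proteins typically have a RING domain, 1 or more B-boxes and a coiled coil, though not every gene with a TRIM symbol encodes a RING domain. Many act as ubiquitin ligases. Several take part in the response to virus. TRIM25 attaches ubiquitin chains that help the RNA sensor RIG-I to signal, TRIM21 is a cytosolic receptor for antibody bound to virus, TRIM5 recognises retroviral capsids, and TRIM22 restricts several viruses. PML builds nuclear bodies that change in size and number under interferon. Interferon-responsive genes often carry spaced GAAA half-sites near their starts, which are the letters that IRF factors contact.

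Promoter sequences are shown first, for the antiviral members TRIM25, TRIM5 and TRIM21 and for TRIM26, TRIM14, TRIM44 and TRIM34 from outside that set. They come from the RefSeq promoter table of build GRCh38.p14, which held no start for TRIM22, and run 5′ to 3′ on the strand of the gene. Capitals mark matches to a spaced pair (GAAA, then any 2 bases, then GAAA) or, where it occurs, a spaced triplet (the pair, any 2 bases and a further GAAA). Both strands were searched, so that a match on the other strand appears as TTTC, and each triplet contains the pair. The first set gives the 250 bases before the start of TRIM25 (chr17:56914050-56914299, minus strand), TRIM26 (chr6:30213407-30213656, minus strand) and TRIM5 (chr11:5685075-5685324, minus strand), chosen because peaks covered the first pair and not the last.
TRIM25: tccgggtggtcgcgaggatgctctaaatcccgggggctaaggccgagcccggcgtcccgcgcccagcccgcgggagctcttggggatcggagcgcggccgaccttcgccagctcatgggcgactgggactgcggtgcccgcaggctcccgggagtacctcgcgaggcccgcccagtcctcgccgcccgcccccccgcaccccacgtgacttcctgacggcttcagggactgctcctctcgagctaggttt
TRIM26: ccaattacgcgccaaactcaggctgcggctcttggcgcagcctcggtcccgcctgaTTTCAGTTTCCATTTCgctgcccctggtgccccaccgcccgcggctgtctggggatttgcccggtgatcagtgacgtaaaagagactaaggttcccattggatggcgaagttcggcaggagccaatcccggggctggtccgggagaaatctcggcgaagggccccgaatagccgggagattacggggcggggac
TRIM5: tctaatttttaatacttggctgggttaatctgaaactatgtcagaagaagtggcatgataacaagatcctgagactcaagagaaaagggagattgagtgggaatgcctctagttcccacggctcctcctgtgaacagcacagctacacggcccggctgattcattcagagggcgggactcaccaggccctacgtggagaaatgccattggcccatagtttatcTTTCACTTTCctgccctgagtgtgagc

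The second set gives 30 bases around the match at 4 further members, TRIM21 (chr11:4393663-4393692, minus strand), TRIM14 (chr9:98119229-98119258, minus strand), TRIM44 (chr11:35662730-35662759, plus strand) and TRIM34 (chr11:5624901-5624930, plus strand). They show the match under a peak in every list (TRIM21 and TRIM14), under a peak in control alone (TRIM44) and far from any peak (TRIM34, chosen after its values were seen).
TRIM21: ctgagcgGAAACTGAAAGTGAAAtagggag
TRIM14: acggccgaggTTTCGGTTTCccttgggagc
TRIM44: tcctgacgggGAAAGGGAAAgtggaaccgg
TRIM34: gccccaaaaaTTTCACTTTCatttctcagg

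The control list held 18028 peaks, the guide 1 list 16811 and the guide 2 list 19609, with median widths of 396, 406 and 424 bp. The files gave no read counts, so depth was unknown. Each peak has an authors' score without a stated scale. It is given here only as the share of the same list with a lower score. Genes that mark mesenchymal breast cancer lines (CD44, VIM, AXL and CAV1) had a peak within 1 kb in every list, whereas EGFR and the basal keratins KRT5, KRT14 and KRT17 had none within 10 kb. None of 6 luminal or 3 hepatocyte markers had a peak within 1 kb in any list, and within 10 kb GATA3, a luminal factor, did in every list.

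A gene was called marked when a peak lay within 1 kb, or within 10 kb, of either end of its RefSeq span. Within 1 kb, 31 of 78 TRIM genes were marked in control, 27 in guide 1 and 32 in guide 2, or 39.7% (Wilson 95% interval 29.6 to 50.8), 34.6% (25.0 to 45.7) and 41.0% (30.8 to 52.1). Among all protein-coding genes the shares were 46.7% in control, 43.5% in guide 1 and 45.9% in guide 2. Within 10 kb, the counts were 41, 39 and 42, or 52.6% (41.6 to 63.3), 50.0% (39.2 to 60.8) and 53.8% (42.9 to 64.5), beside 56.5%, 53.6% and 56.2% of all genes. All 6 shares lay below the share of all genes by an amount within their intervals, which cover counting error only and treat genes as independent. A difference between the family and genes in general was thus not detectable with 78 genes.

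**Figure D1:**
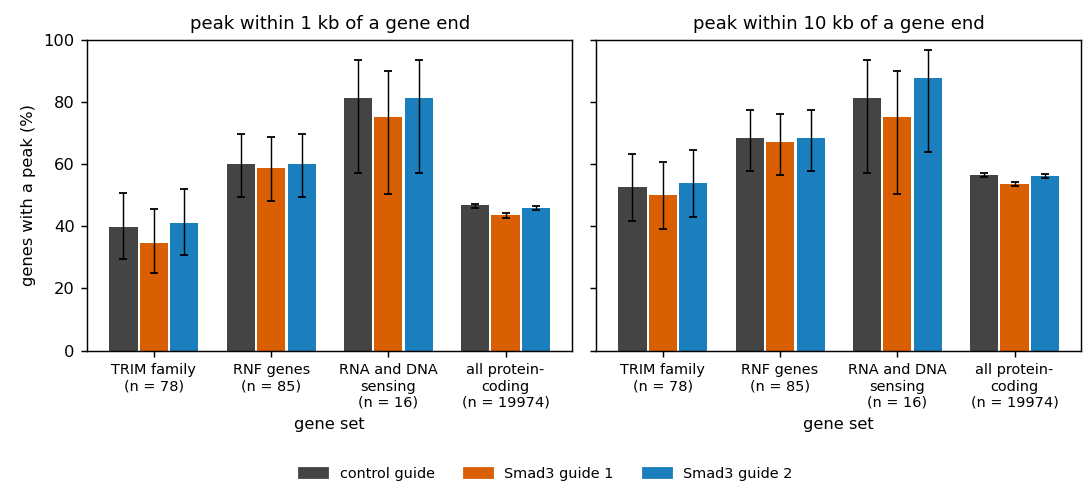
Share of genes with a peak within 1 kb (left) or 10 kb (right) of a gene end, in percent, for TRIM genes, RNF genes, a list of RNA and DNA sensing genes and all protein-coding genes. Bars are the 3 libraries and error bars are Wilson 95% intervals over genes. TRIM bars lie between 34.6% and 53.8%, near those of all genes, and RNF bars between 58.8% and 68.2%.

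Another family with many RING ligase genes is the 85 genes whose symbol begins RNF followed by a number. Within 1 kb, 51, 50 and 51 of these were marked, or 60.0%, 58.8% and 60.0%. Within 10 kb it was 58, 57 and 58, or 68.2%, 67.1% and 68.2%. The plot of marked genes by window shows the RNF share above the TRIM share at each distance drawn from 0.200 to 100 kb in each list. In control the TRIM share was 35.9% at 0.200 kb and 74.4% at 100 kb, against 51.8% and 89.4% for RNF genes. Within 1 kb the RNF Wilson intervals were 49.4 to 69.8, 48.2 to 68.7 and 49.4 to 69.8. They overlapped the TRIM intervals in control and guide 2 and not in guide 1. In the 61 members without the duplicated genes described below, the TRIM shares within 1 kb were 49.2%, 42.6% and 50.8%, still below those of RNF genes. The difference between the families was not tested. Of 16 genes that sense viral RNA or DNA, relay that signal or answer it, the control list marked 13 within 1 kb, guide 1 marked 12 and guide 2 marked 13. The shares were 81.2% (57.0 to 93.4), 75.0% (50.5 to 89.8) and 81.2% (57.0 to 93.4), beside 46.7%, 43.5% and 45.9% of all genes. Within 10 kb, 13, 12 and 14 were marked, or 81.2%, 75.0% and 87.5%, beside 56.5%, 53.6% and 56.2%. This list was chosen with earlier results of these data known, and no test was made. RIGI, the sensor on which TRIM25 acts, had a peak scoring above 98.6% of the control list. MAVS, the mitochondrial adaptor of RIG-I, had one above 86.5%. STING1 and TRAF3 had none within 10 kb in any list, TANK had one in guide 2 alone and IKBKE had none in guide 1.

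The antiviral members divided into a marked and an unmarked pair in all 3 lists. TRIM25 and TRIM21 had a peak over their start, and TRIM5 and TRIM22 had none within 600 kb in any list. Thus 2 of 4 antiviral members were marked within 1 kb in each list, beside 29, 25 and 30 of the 74 others (39.2%, 33.8% and 40.5%). Within 10 kb it was 2 of 4 again, beside 39, 37 and 40 of 74 (52.7%, 50.0% and 54.1%). With 4 genes, 2 of 4 has a Wilson interval of 15.0 to 85.0%, so a difference between antiviral and other members was not detectable.

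At TRIM25 (gene ID 7706, chromosome 17, 56887909 to 56914049, minus strand) the peak spanned 56913784 to 56914463 in control and 56913811 to 56914448 in guide 1, and guide 2 had it at 56913786 to 56914460. It scored above 96.5%, 97.1% and 96.6% of the lists, the highest values within 1 kb of any member in control. In each list the peak covered all 250 bases printed above, its control midpoint lay 74 bp from the gene start, and neither the pair nor the triplet was in the RefSeq window of 300 bases. Control alone had a further weak peak within 10 kb.

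TRIM21 (gene ID 6737, chromosome 11, 4384897 to 4393702, minus strand) had a narrower and weaker peak over its start. It lay at 4393475 to 4393808 in control and 4393466 to 4393821 in guide 1, and in guide 2 it lay at 4393461 to 4393766, with widths of 334, 356 and 306 bp. These peaks scored above 34.7%, 14.1% and 37.0% of their lists, and no change is read from these places. The 3 half-sites printed for TRIM21 began 17 bases after the start and lay under the peak in every list.

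TRIM5 (gene ID 85363, chromosome 11, 5588635 to 5685074, minus strand) and TRIM22 (gene ID 10346, chromosome 11, 5689790 to 5710863) are neighbours. The closest peak was 635 kb from TRIM5 and 609 kb from TRIM22 in each list. Both lie in a stretch of 1.93 Mb (chr11:4393822-6319677) that held no peak in any list and that begins after the TRIM21 peak. RefSeq places 72 protein-coding genes wholly inside it, of which 54 are olfactory receptor genes and 6 are TRIM members (TRIM5, TRIM22, TRIM34, TRIM6, TRIM6-TRIM34 and TRIM68). TRIM5 has a spaced GAAA pair 27 bases before its start and TRIM34 has one 90 bases before a start, so these letters stood there without a peak. Whether reads could be placed there, and whether the genes were active in these cells, was not tested.

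PML (gene ID 5371, chromosome 15, 73994716 to 74047827) was marked at the lower-coordinate end of its span in each list. The peak lay at 73994308 to 73994982 in control, with widths of 675, 618 and 656 bp. The promoter table held no start for PML, so whether that end is its start was not read. The peak scored above 68.4% of the control list, 68.9% of guide 1 and 69.8% of guide 2, a range of 1.40 points. It lies where PML meets STOML1. In control its midpoint was 23 bp from an end of STOML1 and 71 bp from that end of PML, so it cannot be assigned to PML alone.

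Of 14 other members with reported roles in innate sensing, 11 were marked within 1 kb in control, 8 in guide 1 and 10 in guide 2. These are 78.6% (Wilson interval 52.4 to 92.4), 57.1% (32.6 to 78.6) and 71.4% (45.4 to 88.3), beside 46.7%, 43.5% and 45.9% of all genes. Within 10 kb, 12, 11 and 11 were marked. The shares were 85.7% (60.1 to 96.0), 78.6% (52.4 to 92.4) and 78.6% (52.4 to 92.4), beside 56.5%, 53.6% and 56.2% of all genes. This group was chosen with earlier results of these data known, and no test was made. TRIM31 and TRIM6 were marked in no list. The strongest peaks within 1 kb were those of TRIM26, TRIM27 and TRIM14. TRIM26 (gene ID 7726, chromosome 6, 30184455 to 30213406) had a peak over its start that scored above 93.2%, 81.8% and 89.5% of the lists. Its window holds 3 half-sites on the opposite strand, at most 194 bases before the start, and each peak covered them.

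TRIM27 (gene ID 5987, chromosome 6, 28903002 to 28923985), also a RING ligase, had a peak at the higher-coordinate end of its span. Its values were 92.3%, 89.2% and 91.8%, and the promoter table held no start for it. TRIM14 (gene ID 9830, chromosome 9, 98035797 to 98119222), an adaptor at mitochondria in RIG-I signalling, had a start peak with values of 89.3%, 84.2% and 87.2%, over a spaced GAAA pair that begins 26 bases before the start. TRIM23 (gene ID 373, chromosome 5, 65589690 to 65624333), which also carries a GTPase domain, had values of 86.1%, 79.9% and 86.7%, and its peak reached towards SHLD3, an end of which lay 361 bp from the control midpoint. In these 4 genes guide 1 had the lowest of the 3 values. Within 10 kb it also had the lowest for TRIM4, TRIM8 and TRIM65, named after their values were seen. For TRIM38 and TRIM56 the lowest value was in control, and for TRIM41 and TRIM62 in guide 2. Places in different lists are not comparable, so no change is read from this order. TRIM41 had the highest value of the group within 10 kb, 97.5% in control, but the midpoint of that peak lay 29 bp from an end of RACK1 and 8069 bp from TRIM41. Within 1 kb TRIM41 scored above 75.9%, 72.3% and 79.6%.

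The TIF1 group (TRIM24, TRIM28 and TRIM33), chromatin-binding corepressors of which TRIM33 also binds activated SMAD proteins, was marked within 1 kb in all 3 lists for all 3 genes. TRIM28 (gene ID 10155, chromosome 19, 58544064 to 58550715), also called KAP1, silences repeats together with zinc finger proteins. Its peak scored above 94.8%, 97.1% and 96.5% of the lists, and its width was 929 bp in control, 467 bp in guide 1 and 921 bp in guide 2. Guide 1 had 2 peaks within 1 kb of TRIM28 and the other lists had 1. TRIM33 (gene ID 51592, chromosome 1, 114392790 to 114511203) had a start peak above 92.5%, 92.8% and 90.8%. TRIM24 (gene ID 8805, chromosome 7, 138460259 to 138589996) had a weaker one, above 42.8%, 40.0% and 50.4%. The TRIM33 values lay in a range of 2.00 points, where those of TRIM25 and PML lay in 0.600 and 1.40 points. No effect of the guides is read from these ranges.

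Among members with NHL repeats, which bind RNA or protein partners, TRIM32 and TRIM3 were marked within 1 kb and TRIM2 within 10 kb in every list, and TRIM71 in none. TRIM32 scored above 78.7%, 86.6% and 80.3%. The TRIM2 peak (80.6%, 68.9% and 83.2%) had its control midpoint 87 bp from an end of MND1 and 5419 bp from TRIM2. The strongest TRIM3 peak within 10 kb (39.6%, 41.4% and 26.5%) had its control midpoint 75 bp from an end of ARFIP2, and the peak close to TRIM3 itself scored above 12.4%, 24.2% and 24.0%.

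Of the members with a COS domain, which act on microtubules or in neurons, TRIM46 and TRIM9 were marked within 1 kb in all lists and TRIM36 in none at either window. TRIM46 scored above 78.1%, 91.1% and 82.6%, with the midpoint of the control peak 89 bp from an end of KRTCAP2. TRIM9 had weak peaks (34.7%, 11.5% and 3.50%), and the control one did not overlap the guide 2 one.

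Muscle members were mostly unmarked. TRIM54, TRIM63 and TRIM72 had no peak within 10 kb in any list, the closest being 10.7 kb from TRIM72 in control. TRIM55 (gene ID 84675, chromosome 8, 66113351 to 66175485), a sarcomere protein gene, was the exception with a peak above 87.7%, 92.5% and 90.4% of the lists. In control that peak covered the lower-coordinate end of TRIM55, its midpoint 158 bp from it, and the next protein-coding gene end was 11948 bp from the midpoint. The promoter table held no start for TRIM55.

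None of the 14 members of the duplicated primate group (TRIM43, TRIM48, TRIM49, TRIM51, TRIM64, TRIM77 and copies of them) was marked within 10 kb in any list. Their closest control peaks were 40.8 to 1662 kb away, with a median of 379 kb. These copies are close in sequence, so reads may not be placed uniquely. TRIM50, TRIM73 and TRIM74, near-identical genes on chromosome 7, were all marked within 10 kb, TRIM74 also within 1 kb (81.2%, 58.6% and 60.4%), and their peaks are uncertain for the same reason. The TRIM74 peak lay at the end opposite to its start, and the midpoint of the TRIM50 peak lay 53 bp from an end of NSUN5 in control. Without these 17 genes, 30, 26 and 31 of 61 members were marked within 1 kb (49.2%, 42.6% and 50.8%), and 38, 36 and 39 within 10 kb (62.3%, 59.0% and 63.9%). Of these 6 shares, 5 lay above the share of all genes given earlier and guide 1 within 1 kb lay below it, each within its Wilson interval.

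Of the 27 members in no group, 8 were marked within 1 kb in control, 7 in guide 1 and 10 in guide 2. The shares were 29.6% (Wilson interval 15.9 to 48.5), 25.9% (13.2 to 44.7) and 37.0% (21.5 to 55.8). Those of all genes, 46.7%, 43.5% and 45.9%, lay inside these intervals. TRIM16 (gene ID 10626, chromosome 17, 15627966 to 15684311, minus strand), which acts in autophagy of damaged lysosomes, led the members in no group with a peak above 94.9%, 93.8% and 92.6%. That peak lay at the higher-coordinate end of the span, the side of its start. Its control midpoint was 1310 bp from the start that the promoter table lists. TRIM66 (gene ID 9866, chromosome 11, 8612040 to 8683231) had values of 86.5%, 79.9% and 85.8%, but the midpoint of its control peak lay 73 bp from an end of RPL27A, a ribosomal protein gene, and 512 bp from TRIM66. TRIM52 had a peak within 1 kb above 79.7%, 64.0% and 62.4%, and its strongest peak within 10 kb was the RACK1 peak it shares with TRIM41.

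Across members marked within 10 kb, the strongest peak scored above a median of 78.1% of the list in control, 68.9% in guide 1 and 78.2% in guide 2. The same medians over all marked protein-coding genes were 72.7%, 69.6% and 72.0%. Scores above 90% of the list were reached by 8 members in each list, out of 41, 39 and 42 marked. Among all marked protein-coding genes 20.2%, 19.3% and 21.2% reached them, so the family did not stand out. TRIM41 and TRIM52 are among the 8 through the 1 peak they share. Of the 39 members marked in all 3 lists, 19 had values within 10 points of each other, 10 differed by 20 points or more, and the widest range was 45.3 points (TRIM45, named after its values were seen, with 60.8%, 15.5% and 38.2%). A place in 1 list is not comparable with a place in another, so no change is read from these ranges.

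Where the strongest peak sat depended on the window. Of the 31 marked within 1 kb in control, 22 had a start in the promoter table, and in 20 of these the nearest edge of the strongest peak lay within 1 kb of it, the exceptions being TRIM16 and TRIM74. The counts were 17 of 19 in guide 1 and 19 of 22 in guide 2. For the strongest peak within 10 kb, 16 in control, 13 in guide 1 and 14 in guide 2 were at the start, and 15, 16 and 17 were not. Another protein-coding gene was nearer to the midpoint of the strongest peak within 1 kb for 3 members in control (TRIM46, TRIM66 and PML), the same 3 in guide 1, and these with TRIM17 in guide 2. Within 10 kb this held for 9, 10 and 11 members. The 10 members marked in control only beyond 1 kb had their closest peak 1.09 to 9.88 kb away.

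Length and surroundings of marked and unmarked members are given without a test. In control, the 31 members marked within 1 kb had a median span of 26.1 kb and the 47 others 13.2 kb. An end of another protein-coding gene lay a median of 3.41 kb from an end of the former and 11.2 kb from an end of the latter. Over all genes the medians were 27.6 and 20.7 kb for span, and 1.93 and 8.57 kb for distance. Without the 17 duplicated genes the TRIM medians were 26.3 and 17.5 kb, and 3.36 and 4.72 kb. With the 10 kb window the distances without those genes were in the other order, 4.01 kb for marked and 3.66 kb for unmarked members. Chromosome 11 carries 23 members, of which 4, 3 and 3 were marked within 10 kb, against 37, 36 and 39 of the 55 on other chromosomes (17.4%, 13.0% and 13.0% against 67.3%, 65.5% and 70.9%, where all genes had 56.5%, 53.6% and 56.2%). The 23 include 12 of the duplicated primate members.

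RefSeq promoter windows of 300 bases (250 before and 50 after the start) were given for 62 members. The spaced GAAA pair was found at 10 of them, TRIM2, TRIM5, TRIM14, TRIM16, TRIM21, TRIM26, TRIM34, TRIM44, TRIM64C and TRIM69, of which TRIM69 and TRIM64C were named after their values were seen. The pair occurs at 4.16% of all 15813 protein-coding genes with a window. The triplet was found at TRIM21 and TRIM26, and occurs at 0.202% of all protein-coding genes with a window. In every list a peak covered the match at TRIM14, TRIM21 and TRIM26. At TRIM44 a peak covered it in control alone, and at the other 6 none did in any list. The windows cover 79.5% of the members, under the 80% needed, so a comparison of the family with other genes by motif or base composition was void. Among all protein-coding genes with a window, a peak within 1 kb marked 42.9% of those with the pair and 49.5% of those without it in control. For the triplet it was 20 of 32 genes, or 62.5% (45.3 to 77.1), against 49.2%.

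The lists differed at few members. Within 1 kb, 27 members were marked in all 3 lists and 6 in 1 or 2 of them, or 7.69%, where 5.52% of all protein-coding genes were. Within 10 kb it was 39 and 4, or 5.13%, where 6.04% of all genes were. With each list limited to its 16811 best-scoring peaks, the length of the shortest, the counts were 7 within 1 kb and 5 within 10 kb. With 1 library a group, the guides cannot be told apart from other differences between libraries.

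TRIM44 (gene ID 54765, chromosome 11, 35662775 to 35818007), a regulator of the adaptor MAVS, was the 1 member marked in control alone at both windows. Its control peak (35662581 to 35662833) scored above 42.8% of the list and covered the start and the spaced GAAA pair shown above. The closest peak to a TRIM44 end was 21.0 kb away in guide 1 and 21.1 kb in guide 2. Each of these lists held 1 peak inside the gene span. Among all genes, 1.44% were marked in control alone within 10 kb.

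TRIM11 and TRIM17, ubiquitin ligase genes side by side on chromosome 1, were marked in guide 2 alone, by the same peak (228407195 to 228407429, above 42.4% of the list). It lay between them, 360 bp from TRIM11 and 506 bp from TRIM17. In control the closest peaks were 50.5 and 40.5 kb away. Guide 2 alone marked 2.56% of members at each window through this 1 peak. The shares of all genes were 0.846% within 1 kb and 0.991% within 10 kb. TRIM67 had a weak peak inside its span near the 10 kb limit in control (9.28%, 9.88 kb from an end) and guide 2 (16.4%), and none in guide 1 within 19.3 kb. TRIM8, TRIM47 and TRIM56, named after their values were seen, had a peak within 1 kb in control and guide 2 and not in guide 1, where the closest was 1.33, 1.14 and 2.18 kb away. Their strongest peaks within 1 kb scored above 15.9%, 33.1% and 7.81% of the control list and 21.5%, 14.9% and 18.9% of guide 2. Control and guide 2 without guide 1 marked 3.85% of members and 2.21% of all genes within 1 kb. Within 10 kb the shares were 1.28% and 2.28%. No member was marked in guide 1 alone, or in both guides and not in control, at either window. Among all genes, 0.135% were marked in guide 1 alone within 1 kb and 0.195% within 10 kb. For both guides without control the shares were 0.365% and 0.641%. With 78 members, finding none at such shares says nothing about the family.

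Where members were marked in 2 lists, their strongest peaks mostly overlapped by at least 1 bp. Within 10 kb this held for 36 of 39 between control and guide 1, 37 of 40 between control and guide 2 and 38 of 39 between the guides. The same counts over all genes were not made, so nothing about the family is read from them. The exceptions were TRIM47, TRIM39 and TRIM39-RPP21, then TRIM9 with the last pair, and then TRIM47, named because they were few. TRIM39 and TRIM39-RPP21 share their peaks and are 1 locus. Control had 2 peaks there, each above 67.5% of the list. The one not taken as strongest (30345015 to 30345428) overlapped the strongest peak of each guide. These exceptions thus rest on the choice between 2 control peaks of like score.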

How the data were processed

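Per the submitters' processing notes, Bowtie2 2.2.2.6, MACS2 2.1.0 and build hg38 were used, without stated roles or settings. The sources used here do not state an input library, read filters or a peak threshold. For each library the authors deposited 1 peak list, with a position and a score of unstated scale for each peak. A further column was 0 throughout and not used. Groups came from the label naming the guide.

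Distances ran from the nearest peak edge to either end of the RefSeq span (GRCh38.p14, which shares coordinates with hg38, 1-based). Where a midpoint is named, the distance runs from it, and the nearer of 2 genes was read from midpoints. A peak's score was turned into the percent of its own list with a lower score. Starts and strand came from the RefSeq promoter table, which held 62 of 78 members. Shares have Wilson 95% intervals from scipy 1.17.1, and the plots use matplotlib 3.10.9. No test between groups was made. Distance code was tested on simulated data, where 200 of 200 placed peaks were found at their distance.

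The members and lists were chosen with earlier results of these data known. Named were the antiviral members, PML, TIF1 genes, members marked within 10 kb in 1 or 2 lists, the 10 with the highest control score within 1 kb, up to 3 marked members per group and groups without a marked member. The alternatives are given with their values below. A marker list of another cell type is not reported here.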

Additional observations from a re-analysis of the deposited data

How the results depend on the processing

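No paired analysis was possible because each group holds 1 library. Restricting members to chromosomes 1 to 22 and X was not run as an alternative, since the main gene set already has that limit. Over 26 results and 189 alternatives, 141 values stayed within 1.5 times the main count (or within the limit set for a median) and 48 moved. Counts below are in the order control, guide 1, guide 2. With a 50 kb window in place of 1 kb, 52, 52 and 53 members were marked (50, 50 and 51 of those other than the antiviral ones), and the members marked in 1 or 2 lists fell from 6 at 1 kb and 4 at 10 kb to 1. When each list was limited to its 5000 best-scoring peaks, 17, 15 and 16 members were marked within 1 kb (16, 14 and 15 without the antiviral ones) and 23, 19 and 22 within 10 kb (22, 18 and 21), the antiviral count was 1 in each list at both windows, TRIM25 being the one kept, and 3 members within 1 kb were marked in 1 or 2 lists. With peaks at or above the median score, the antiviral count was again 1 in each list at both windows, guide 2 had 21 members within 1 kb, and 7 members within 10 kb were marked in 1 or 2 lists. With distance to the gene start only, which 62 members have, 20 were marked within 1 kb in guide 2 and 25, 23 and 25 within 10 kb. Those other than the antiviral ones were then 19, 16 and 18, and 23, 21 and 23, and 3 members within 1 kb were marked in 1 or 2 lists. The median score percentile of strongest peaks within 1 kb in place of 10 kb was 72.3 in guide 1 and 74.7 in guide 2. Read depth is unknown, so what it limits cannot be given, and the peak threshold was the authors'.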
